A study of Mus musculus with 79 samples.

Results

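Mammary tumors grown from metM-Wnt-liver cells were compared between diet-induced obese (DIO) mice and Control mice, both without sulindac. The comparison rests on the 14 arrays whose sample labels name this cell line with the group DIO (7 arrays) or Control (7 arrays), of 79 arrays in the series, and covers 19505 genes. Each array carries RNA from the whole tumor of a separate female C57BL/6J mouse that entered the study at 8 to 9 weeks of age. Fat supplied 60 kcal% of the diet in DIO mice and 10 kcal% in Control mice, and the cells were injected into mammary fat pad 4. The methods give 15 weeks of diet and a further 5 weeks before injection, whereas the sample records count 5 weeks from the first randomization. Mice were 33 to 34 weeks old at the end, and tumor mass entered no fit. The metM-Wnt-liver line was taken from a liver metastasis of M-Wnt cells, which derive from mammary tumors of MMTV-Wnt1 mice on the same strain background, so all 14 tumors come from 1 established line. In this transgene the mouse mammary tumor virus promoter drives Wnt1 in mammary epithelium. Mice given sulindac, 7 DIO+Sulindac and 4 Control+Sulindac, entered the statistical fit to estimate the spread but are not described.

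Whole tumor RNA mixes cancer cells with immune cells, vessels, fibroblasts and any fat or muscle cut out with the tumor. Interferon gamma, released by T cells and natural killer (NK) cells, induces GTPases, the immunoproteasome and the MHC molecules that present peptides to T cells. Neutrophils are recruited by chemokines such as CXCL1 and CXCL2 and carry the calcium-binding proteins S100A8 and S100A9. Obesity is known for a chronic low-grade inflammation of adipose tissue, the tissue in which these tumors were implanted.

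No gene passed an adjusted p under 0.05 for DIO minus Control by limma with Benjamini-Hochberg adjustment, which is 0% of 19505 genes. The smallest adjusted p was 0.58. At an unadjusted p under 0.05 there were 434 genes higher (2.23%) and 611 genes lower (3.13%) in DIO tumors, and these are the shares against which the gene lists below are read. Members of a list can move together in the same tumors, so they are not independent observations. Counts of members therefore only describe the lists, and no test of a list was made. Together, 1045 genes passed, close to the 1 in 20 that chance alone gives at this threshold. An unadjusted p under 0.05 therefore does not by itself mark a changed gene. Differences of at least 1 on the log2 scale were seen in 131 genes, 40 of them higher and 91 lower in DIO tumors. The median difference over all genes was -0.00286, and the median 95% confidence interval of a gene reached 0.404 to either side. In data simulated with the observed spread, the same test called 99 of 100 genes given a log2 change of 2. It called 73 of 100 given a log2 change of 1. Both sets were planted in the same simulation, and its genes varied independently of each other. The Benjamini-Hochberg cutoff depends on how many genes change, so these rates need not hold where few or no genes change strongly. The median residual SD of a gene was 0.371, but genes named below varied widely around it. Their SD in DIO tumors was, for example, 0.13 for Lbr and 2.43 for Cxcl2. How often the more variable genes would be called was not tested separately, so these counts do not carry over to them. Every DIO minus Control difference below is on the log2 scale, with its 95% confidence interval from limma in parentheses (or, for a difference given in parentheses, after it), and none of them passed the adjusted threshold. Over all genes 49.4% were higher and 50.4% lower in DIO tumors at any p.

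**Figure D1:**
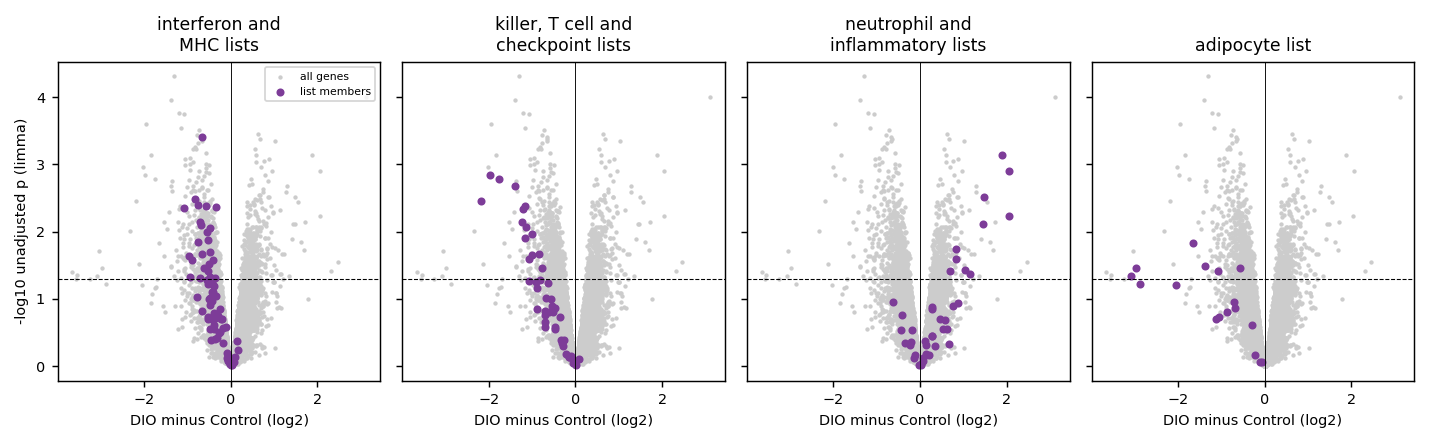
Difference between DIO and Control metM-Wnt-liver tumors (x axis, log2) against the unadjusted limma p (y axis, -log10) for 19505 genes in grey, with the members of 4 groups of gene lists in purple; the dashed line marks an unadjusted p of 0.05. Interferon, MHC, killer cell and T cell members lie mostly left of 0, neutrophil members mostly right of it, and no gene reached an adjusted p under 0.05.

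Array medians of the log2 signal were 6.45 to 6.56 in DIO and 6.44 to 6.63 in Control tumors, and arrays within these groups correlated at 0.971 to 0.990 over all genes. Among the other arrays of the series, the 4 metM-Wnt-liver Control+Sulindac and the 6 metM-Wnt-lung Control arrays had their bottom percentile at 3.10 to 3.15 and their top percentile at 16.28 to 16.48. Leaving the Control+Sulindac arrays out of the fit gave 0 called genes as well. These percentiles were at 3.21 to 3.25 and 16.13 to 16.28 in the DIO arrays and at 3.20 to 3.27 and 16.14 to 16.34 in the Control arrays. A few arrays stood apart in what they contained, measured as a list score, the mean log2 signal of a list's members after each gene was centred over the 25 metM-Wnt-liver arrays. DIO replicate 3 had the lowest score among DIO tumors in 16 of 41 lists and the highest in 10. Control replicate 4 had the highest score among Control tumors in 18 lists, and Control replicate 6 had the lowest in 21.

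M-Wnt cells are described as mesenchymal and claudin-low, and the markers of this state were checked. Vim, the mesenchymal filament protein vimentin, read 17.27 to 17.56 in DIO and 16.99 to 17.56 in Control tumors. Epcam, an epithelial adhesion protein, read 3.04 to 5.13 in DIO and 3.45 to 6.32 in Control tumors, and the tight-junction genes Cldn3, Cldn4 and Cldn7 read at most 4.81 in DIO and 4.92 in Control tumors. Not all epithelial markers were low. The keratin gene Krt8 averaged 8.43 in DIO and 8.94 in Control tumors (SD 3.26 and 3.68), above the median gene (6.85). Cdh1 averaged 5.88 and 6.42 in the same order, and Krt18 3.87 and 4.80. Wnt1 itself read 3.04 to 3.48 in DIO and 2.93 to 3.48 in Control tumors. These values lie around the bottom percentile of the arrays (3.21 to 3.25 in DIO, 3.20 to 3.27 in Control), so no Wnt1 signal above the floor can be read from them. Pgr, the progesterone receptor, read at most 4.91 in either group, and Esr1, the estrogen receptor, 5.74 to 6.74 in DIO and 6.3 to 7.38 in Control tumors. The receptor gene Erbb2 averaged 7.95 in DIO and 7.86 in Control tumors, above the median gene.

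The gene with the largest difference upward was Saa3, a serum amyloid A protein made by macrophages, fat cells and epithelium during the acute-phase response. Its signal was 12.52 at the lowest, 14.1 at the median and 15.37 at the highest in DIO tumors, against 6.85, 11.27 and 12.57 in Control tumors. All DIO tumors but replicate 5 lay above every Control tumor, and Control replicate 6 lay far below the rest. The difference was 3.11 (1.72 to 4.51), and 2.45 without Control replicate 6. S100a8, a chain of calprotectin, was the only gene of 19505 (0.00513%) with every DIO tumor above every Control tumor. It read 6.11, 6.51 and 10.04 (lowest, median and highest) in DIO tumors, against 4.22, 5.44 and 6.04 in Control tumors. The gap between the groups was narrow and DIO replicate 3 was well above the other tumors. The difference was 1.88 (0.87 to 2.89), and 1.42 without that replicate. S100a9, the partner chain, overlapped between groups at 5.87, 7.53 and 11.24 in DIO tumors, against 4.76, 6.04 and 6.54 in Control tumors. Its difference was 2.05 (0.88 to 3.21), and 1.49 without DIO replicate 3.

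**Figure D2:**
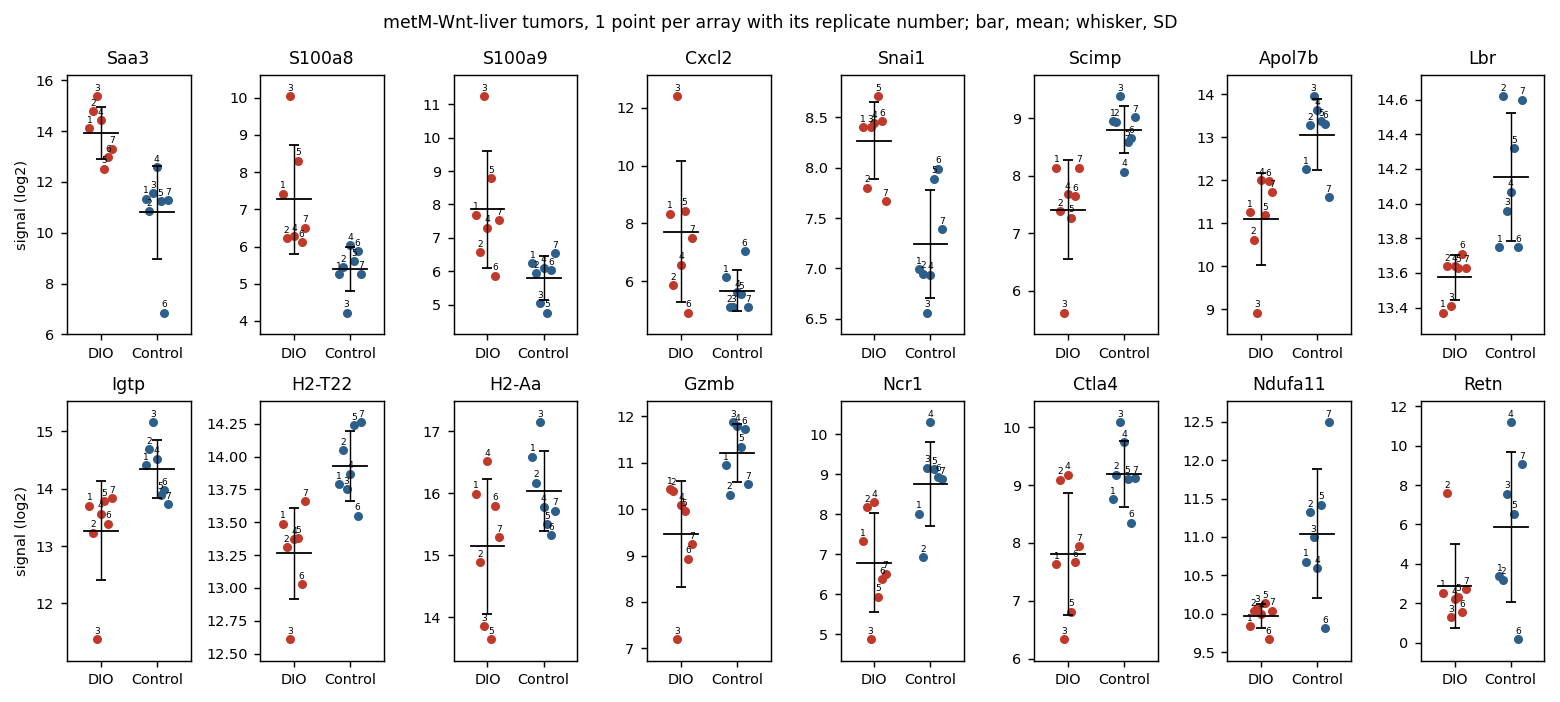
Signal (y axis, log2) of 16 genes in the 7 DIO and 7 Control metM-Wnt-liver arrays, 1 point per array marked with its replicate number; the horizontal bar is the mean and the whisker the SD. S100a8 in DIO tumors stays above 6.04, the highest Control value, Lbr in DIO tumors stays below 13.75, the lowest Control value, and DIO replicate 3 is the extreme point of many genes.

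Promoters of 5 named genes, 3 of them higher and 2 lower in DIO tumors, are shown so that the signals named above can be read beside their sequence. They come from RefSeq for mouse build GRCm38.p6, from 250 bases before to 50 bases after the gene's start, written 5′ to 3′ along the gene. Capitals mark matches on either strand to the interferon-stimulated response element (ISRE: GAAA, 2 bases of any kind, GAAA), the gamma-activated site (GAS: TTCNNNGAA), an NF-kappa-B site (GGGA, 2 bases of any kind, TTCC) or a C/EBP site (TTGCNNAA). Saa3 lies at chr7:46715627-46715926 on the minus strand, S100a8 at chr3:90668821-90669120 and Cxcl1, a neutrophil chemokine, at chr5:90890995-90891294, both on the plus strand. On the other side, H2-T22, an MHC class I gene, lies at chr17:36042693-36042992 on the minus strand and Igtp, an interferon-inducible GTPase, at chr11:58199306-58199605 on the plus strand.
Saa3: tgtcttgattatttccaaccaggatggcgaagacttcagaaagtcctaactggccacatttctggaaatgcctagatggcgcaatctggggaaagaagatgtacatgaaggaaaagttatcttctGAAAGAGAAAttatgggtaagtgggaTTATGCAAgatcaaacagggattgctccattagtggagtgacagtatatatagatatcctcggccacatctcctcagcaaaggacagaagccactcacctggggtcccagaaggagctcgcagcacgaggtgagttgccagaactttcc
S100a8: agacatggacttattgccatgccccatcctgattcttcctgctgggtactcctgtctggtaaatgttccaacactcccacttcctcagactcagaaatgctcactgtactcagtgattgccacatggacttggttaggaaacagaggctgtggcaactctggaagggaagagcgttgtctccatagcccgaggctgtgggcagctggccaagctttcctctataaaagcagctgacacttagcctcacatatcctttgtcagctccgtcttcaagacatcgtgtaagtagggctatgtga
Cxcl1: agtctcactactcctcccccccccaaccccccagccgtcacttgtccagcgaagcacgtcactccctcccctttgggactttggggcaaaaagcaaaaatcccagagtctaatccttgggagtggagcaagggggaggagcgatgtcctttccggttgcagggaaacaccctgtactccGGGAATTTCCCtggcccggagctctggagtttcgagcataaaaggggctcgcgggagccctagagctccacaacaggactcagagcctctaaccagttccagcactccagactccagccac
H2-T22: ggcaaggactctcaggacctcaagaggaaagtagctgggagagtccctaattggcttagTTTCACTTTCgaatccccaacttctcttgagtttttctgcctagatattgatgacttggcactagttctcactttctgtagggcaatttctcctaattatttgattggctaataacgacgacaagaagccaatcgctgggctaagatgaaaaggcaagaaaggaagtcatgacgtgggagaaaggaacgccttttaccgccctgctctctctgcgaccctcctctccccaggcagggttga
Igtp: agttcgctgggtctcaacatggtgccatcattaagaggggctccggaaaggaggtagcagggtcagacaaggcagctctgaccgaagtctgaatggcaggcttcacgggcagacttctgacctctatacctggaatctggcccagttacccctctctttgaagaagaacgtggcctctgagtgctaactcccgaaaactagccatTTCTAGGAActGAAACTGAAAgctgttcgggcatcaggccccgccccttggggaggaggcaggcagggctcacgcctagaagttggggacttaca
The Saa3 window held an ISRE match from base -125 to base -116 of the start and a C/EBP match from base -99 to base -92. The Cxcl1 window held NF-kappa-B matches on both strands in overlapping positions from base -71 to base -61. In H2-T22 an ISRE match lay on the opposite strand from base -191 to base -182, and in Igtp a GAS match (-45 to -37) lay just before an ISRE match (-34 to -25). The S100a8 window held none of the 4 letter patterns. Over 27025 mouse promoters of the same length ISRE was found in 3.49%, GAS in 8.47%, NF-kappa-B in 1.43% and C/EBP in 10.8%. ISRE was present in 8 of 12 promoters of the interferon gamma list and 14 of 26 of the type I interferon list. NF-kappa-B was present in 6 of 17 promoters of the inflammatory cytokine and chemokine list, and C/EBP in 6 of 16 of the neutrophil list. These shares describe the lists, whatever their direction in the tumors.

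Neutrophil genes were on balance higher in DIO tumors. Of 17 measured, 14 were higher and 3 lower, and 7 of the higher genes had an unadjusted p under 0.05, with a median difference of 0.66 against -0.00286 over all genes. Beside the S100 genes these were Stfa2l1 (1.48, 0.55 to 2.41) and Stfa2, which encode stefin protease inhibitors, the chemokine receptor Cxcr2 (0.83, 0.15 to 1.51), Retnlg and the gelatinase Mmp9 (1.15, 0.04 to 2.26). Granule genes of neutrophil precursors (Elane, Mpo, Ngp, Camp and Ltf) differed by -0.23 to 0.14. These genes were named after their values were seen. Their signal levels are not given here, so the small differences cannot be read as unchanged expression. DIO replicate 3 had a neutrophil score of 1.81, whereas the next DIO tumor, replicate 5, was at 0.74. Without replicate 3 the count of neutrophil genes at an unadjusted p under 0.05 was 3, with a median of 0.31, and Stfa2l1 differed by 0.94 and Cxcr2 by 0.48. Without Control replicate 6 the count was 4 and the median 0.23.

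Inflammatory cytokines and chemokines differed less evenly, with 16 of 23 higher, 7 lower, 3 higher at an unadjusted p under 0.05 and a median of 0.27. Those 3 were neutrophil chemokines acting on CXCR2. Cxcl2 read 4.91, 7.51 and 12.4 in DIO tumors, against 5.11, 5.55 and 7.04 in Control tumors. Its spread in DIO tumors exceeded the whole Control range on both sides, and the difference was 2.05 (0.65 to 3.45), or 1.27 without DIO replicate 3. Cxcl1 read 5.79, 6.75 and 9.94 in DIO tumors, against 5.19, 5.92 and 6.94 in Control tumors, a difference of 1.44 (0.41 to 2.47). Cxcl5 differed by 0.83 (0.11 to 1.56). Without DIO replicate 3 the median of the list was 0.03, so that the lean of the list rested largely on that tumor, although the 3 chemokines were still at an unadjusted p under 0.05.

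The macrophage list had no common direction (10 higher, 8 lower, median 0.02). Its abundant identity genes differed by little, such as Adgre1, an adhesion receptor (-0.27, -0.62 to 0.07), Csf1r (-0.18, -0.59 to 0.24) and the complement gene C1qa (-0.08, -0.46 to 0.30). Marco, a scavenger receptor, read 4.36, 5.14 and 10.43 in DIO tumors, against 3.82, 4.27 and 4.54 in Control tumors. Only DIO replicate 4 fell inside the Control range, and DIO replicate 3 stood far above all other tumors. The difference was 1.72 (0.51 to 2.94), and 0.97 without DIO replicate 3.

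Genes induced by interferon gamma were lower in DIO tumors in all 16 of 16 cases, against 50.4% of all genes, although only 3 had an unadjusted p under 0.05. Their median difference was -0.50. The tumors overlapped in the score of this list, at -1.78 to -0.02 in DIO and -0.86 to 0.88 in Control tumors. Igtp read 11.38, 13.56 and 13.83 in DIO tumors, against 13.73, 14.41 and 15.15 in Control tumors. DIO replicate 3 was the lowest by a wide margin, and only DIO replicates 5 and 7 overlapped the Control range. The difference was -1.07 (-1.78 to -0.36), and -0.76 without DIO replicate 3. Socs1, a feedback inhibitor of cytokine signaling, differed by -0.68 (-1.17 to -0.19), and the guanylate-binding protein gene Gbp8 differed by -0.95 (-1.89 to -0.01). In whole tumors, fewer cells of a type and less RNA per cell cannot be told apart, here and in all cell type lists. Without DIO replicate 3 all 16 genes were still lower, with a median of -0.28 and 2 at an unadjusted p under 0.05.

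The type I interferon list had 31 of 36 genes lower in DIO tumors, 7 at an unadjusted p under 0.05, and a median of -0.39. Dhx58, a regulator of RNA sensing, differed by -0.55 (-0.96 to -0.14), Rtp4 by -0.51 (-0.91 to -0.12), Ifi27l2a by -0.76 (-1.35 to -0.16) and Ifi35 by -0.42 (-0.79 to -0.05). Dhx58 read 10.38, 11.3 and 11.64 in DIO tumors, against 11.34, 11.74 and 12.06 in Control tumors, with DIO replicates 2 and 7 inside the Control range. Ifi27l2a was highest in Control replicates 5 and 7 (13.15 and 13.3), whereas the other Control tumors read at most 12.06. DIO replicate 3 had the lowest score of the list (-1.03), and without it the median was -0.23 with 3 genes at an unadjusted p under 0.05.

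Antigen presentation genes were lower in DIO tumors for both MHC classes. For MHC class I and the immunoproteasome, 15 of 16 genes were lower and 9 of these had an unadjusted p under 0.05, with a median of -0.36. H2-T22 read 12.61, 13.37 and 13.66 in DIO tumors, against 13.55, 13.87 and 14.26 in Control tumors. Only DIO replicate 7 exceeded the lowest Control tumor, replicate 6, and the difference was -0.67 (-1.0 to -0.33). The inducible proteasome subunits Psmb10 and Psmb9, which shape peptides for MHC class I, differed by -0.82 (-1.35 to -0.30) and -0.58 (-0.96 to -0.20), and the nonclassical class I gene H2-T23 by -0.75 (-1.24 to -0.26). Without DIO replicate 3 there were 7 of 16 genes at an unadjusted p under 0.05 and the median was -0.31.

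For MHC class II, 9 of 10 genes were lower and 5 had an unadjusted p under 0.05, with a median of -0.51. H2-Aa, the alpha chain of the mouse class II molecule I-A, read 13.65, 15.29 and 16.52 in DIO tumors, against 15.32, 15.78 and 17.14 in Control tumors. DIO replicates 3 and 5 were low and DIO replicate 4 was high, so that the groups overlapped widely. The difference was -0.89 (-1.66 to -0.11), beside -0.96 for H2-Eb1 (-1.77 to -0.14), -0.71 for H2-Ab1 (-1.42 to -0.01) and -0.67 for H2-DMb1, which helps load peptide (-1.24 to -0.11). Without DIO replicate 3 no class II gene kept an unadjusted p under 0.05 and the median was -0.35, whereas without DIO replicate 4 it was -0.74. Scimp encodes an adaptor of antigen-presenting cells found with MHC class II in the membrane, and it was first among the genes lower in DIO tumors by the naming rule. It read 5.62, 7.64 and 8.14 in DIO tumors, against 8.07, 8.94 and 9.38 in Control tumors. DIO replicates 1 and 7 reached just above Control replicate 4 and the rest did not overlap, for a difference of -1.39 (-2.02 to -0.76). The dendritic cell list leaned the same way without any gene at an unadjusted p under 0.05 (10 of 12 lower, median -0.35), and its score was highest in DIO replicate 4 (0.91).

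Killer cell genes had the lowest median of any immune list. All 18 measured genes were lower in DIO tumors, 9 with an unadjusted p under 0.05 (background 3.13%), and the median was -0.95. Ncr1, the activating receptor NKp46 of NK cells, read 4.88, 6.51 and 8.3 in DIO tumors, against 6.92, 8.94 and 10.29 in Control tumors. DIO replicates 1, 2 and 4 lay inside the Control range and the other 4 below it. The difference was -1.97 (-3.11 to -0.84). Gzmb, the granzyme that activates caspases in target cells, read 7.2, 9.96 and 10.43 in DIO tumors, against 10.31, 11.35 and 11.87 in Control tumors, a difference of -1.75 (-2.78 to -0.73). Only DIO replicates 1 and 2 reached the Control range. Gzma differed by -2.18 (-3.59 to -0.78) and Xcl1, a chemokine of NK and T cells that attracts dendritic cells, by -1.17 (-1.94 to -0.40). Without DIO replicate 3, 17 of 18 genes were lower, 7 with an unadjusted p under 0.05, and the median was -0.67.

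T cell receptor complex and coreceptor genes were also lower in all 14 of 14 cases (median -0.55), but only Cd2 had an unadjusted p under 0.05 (-1.21, -2.01 to -0.41). Cd8a, the coreceptor of cytotoxic T cells, differed by -0.89 (-2.11 to 0.33), whereas the shared chain Cd3e differed by -0.15 (-1.10 to 0.79) and Cd4 by -0.15 (-1.02 to 0.73). Control replicate 6 had a T cell score of -1.14, close to the lowest DIO tumor (-1.29), and without it 6 of the 14 genes had an unadjusted p under 0.05 with a median of -0.70. Leaving out DIO replicate 3, 12 of the 14 were lower, 1 at an unadjusted p under 0.05, and the median was -0.44, and without Control replicate 3 the median was -0.38. Checkpoint genes were lower in 11 of 13 cases, 4 at an unadjusted p under 0.05, with a median of -0.69. Ctla4, an inhibitory receptor of activated and regulatory T cells, read 6.34, 7.67 and 9.18 in DIO tumors, against 8.35, 9.12 and 10.08 in Control tumors, a difference of -1.38 (-2.22 to -0.55). DIO replicates 2 and 4 lay within the Control range and the other 5 below it. Tnfrsf18, encoding the costimulatory receptor GITR, differed by -1.01 (-1.77 to -0.25), and Icos by -1.07 (-2.0 to -0.14). The checkpoint median was -0.48 without DIO replicate 3, with 2 genes at an unadjusted p under 0.05, and -0.45 without Control replicate 3. B cell genes did not share this direction (8 higher and 5 lower of 13, median 0.07). Jchain, which joins antibody chains in plasma cells, was the exception there at -1.38 (-2.63 to -0.12).

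**Figure D3:**
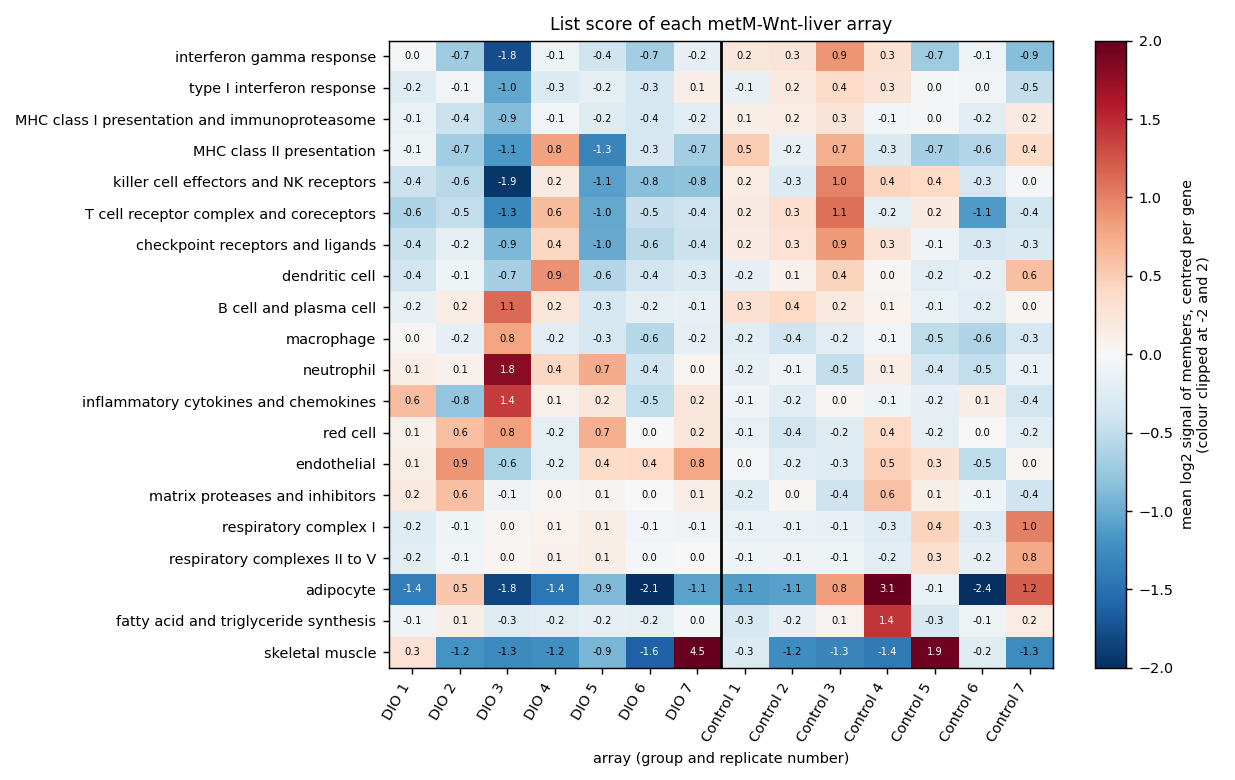
List score of each of the 7 DIO and 7 Control metM-Wnt-liver arrays (columns) for 20 gene lists (rows), in log2 units centred per gene over the 25 arrays of this line; colour is clipped at -2 and 2 and the value is printed. DIO replicate 3 holds the lowest killer cell score (-1.95) and the highest neutrophil score (1.81), and the adipocyte score of Control replicate 4 (3.14) exceeds that of every other array shown.

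Prostaglandin genes, whose cyclooxygenases sulindac blocks, had no common direction (8 higher, 9 lower of 17, median -0.07). Ptgs1, encoding the cyclooxygenase COX1, was not among the genes tested here. Ptgs2, encoding the inducible cyclooxygenase COX2, read 12.12, 14.18 and 15.68 in DIO tumors, against 11.75, 12.87 and 14.83 in Control tumors. The groups overlapped over nearly their whole range and the difference was 0.61 (-0.52 to 1.74), or 0.28 without DIO replicate 3 and 0.18 with array weights. Ptgis, the prostacyclin synthase, differed by 0.81 (0.03 to 1.58), or 0.49 without DIO replicate 3, and Tbxas1, the thromboxane synthase, by -0.47 (-0.93 to -0.01).

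Among genes of transcription, adhesion and the cell cycle a few differed beside the immune lists. Snai1, a transcription factor that drives the epithelial to mesenchymal transition, read 7.67, 8.4 and 8.71 in DIO tumors, against 6.56, 6.99 and 7.99 in Control tumors. DIO replicates 2 and 7 lay within the Control range, Control replicates 5 and 6 were the highest of their group, and the difference was 1.02 (0.50 to 1.55). The claudin-low and mesenchymal list as a whole had 8 of 13 genes higher with a median of 0.08, and Snai1 alone had an unadjusted p under 0.05. Lpp, an adaptor of focal adhesions, differed by 0.63 (0.31 to 0.94) and Zfpm2, a cofactor of GATA factors, by 0.96 (0.41 to 1.51). The remaining genes named on this side were Dcun1d4 (0.55), D11Wsu47e (0.59), the histone gene H4bc24 (0.88), the cochaperone gene Dnajc25 (0.59) and Krtcap2, encoding a subunit of the oligosaccharyltransferase (0.69).

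On the lower side, Lbr, the lamin B receptor of the inner nuclear membrane, was 1 of 2 genes (0.0103%) with every DIO tumor below every Control tumor. It read 13.37, 13.63 and 13.71 in DIO tumors, against 13.75, 14.07 and 14.62 in Control tumors, a difference of -0.58 (-0.88 to -0.27). The groups were separated by less than the spread within either of them. Tmem67, a protein of the ciliary transition zone, was the other, at -0.35 (-0.71 to 0.01). E2f1, a transcription factor of the G1 to S transition, differed by -0.76 (-1.16 to -0.37), but the S phase list had 17 of 24 genes lower with a median of -0.12 and 1 gene at an unadjusted p under 0.05. The mitosis list leaned the other way (20 of 29 higher, median 0.08), and the proliferation marker Mki67 differed by -0.50 (-1.32 to 0.31). Apol7b, an apolipoprotein L family gene, read 8.92, 11.26 and 12 in DIO tumors, against 11.6, 13.31 and 13.95 in Control tumors, and differed by -1.96 (-2.91 to -1.01). Rrbp1, a ribosome-binding protein of the endoplasmic reticulum, differed by -1.16 (-1.73 to -0.59), the leucine catabolism gene Mccc2 by -0.73 (-1.08 to -0.37), the leukocyte formin Fmnl1 by -0.78 (-1.18 to -0.39), Trak1, an adaptor for mitochondrial transport, by -0.65 (-0.98 to -0.32) and Tmem140 by -0.66 (-1.0 to -0.32). The Wnt ligand, target and feedback list had 16 of 24 genes higher in DIO tumors, with a median of 0.12.

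Adipocyte markers had the lowest median of all 41 lists. All 17 genes were lower in DIO tumors, 6 with an unadjusted p under 0.05, and the median was -1.05. Retn, the adipokine resistin, read 1.31, 2.34 and 7.59 in DIO tumors, against 0.19, 6.55 and 11.17 in Control tumors. Control tumors spanned almost the whole scale, with replicates 4 and 7 highest and replicate 6 below every DIO tumor, and only DIO replicate 2 was high in its group. The difference was -2.98 (-5.74 to -0.22). Plin1, which coats the fat droplet, differed by -1.65 (-2.95 to -0.35), the lipase gene Pnpla2 by -0.58 (-1.11 to -0.04), the glycerol channel gene Aqp7 by -1.38 (-2.64 to -0.12) and Adipoq by -3.08 (-6.09 to -0.06). In DIO tumors Retn, Plin1 and Aqp7 averaged 2.90, 2.67 and 3.07, below the bottom percentile of these arrays (3.21 to 3.25). Their differences are therefore taken against the floor of the signal, unlike that of Pnpla2, which averaged 11.18. Adipoq averaged 3.84 in DIO tumors with an SD of 2.51, close to that percentile, so its difference is read near the floor as well. Adipocyte scores were -2.09 to 0.54 in DIO tumors and -2.45 to 3.14 in Control tumors, and without Control replicate 4 the median was -0.47 with no gene at an unadjusted p under 0.05, whereas without Control replicate 6 it was -1.24 with 10 such genes. Fatty acid and triglyceride synthesis followed Control replicate 4 as well (10 of 14 lower, median -0.22, and -0.05 without it), with Scd1, the stearoyl-CoA desaturase, at -1.04 (-2.05 to -0.04). Without Control replicate 4, Aqp7 differed by -0.84, Pnpla2 by -0.38 and Scd1 by -0.65. The adipocyte list thus leaned lower in DIO tumors beside the immune lists, although the DIO scores all lay within the Control range. Its part in the immune lists was not tested. A setting without the 3 arrays whose adipocyte or muscle scores exceeded 1.5 (DIO replicate 7 and Control replicates 4 and 5) is no such test. The adipocyte list kept its direction there, lower in 14 of 17 genes with a median of -0.49. In this setting killer cell genes were lower in 18 of 18 cases, with a median of -0.75 and 5 at an unadjusted p under 0.05. Interferon gamma genes then had a median of -0.62, type I interferon genes -0.38, MHC class I genes -0.44 and MHC class II genes -0.63. Medians were -0.64 for T cell, -0.60 for checkpoint and 0.76 for neutrophil genes.

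Skeletal muscle genes had scores of -1.62 to 4.48 in DIO and -1.42 to 1.95 in Control tumors, each led by 1 array (DIO replicate 7 and Control replicate 5). Their median of 0.28 (16 of 18 higher) was -0.38 without DIO replicate 7. Endothelial genes were higher in 12 of 13 cases with a median of 0.27. Tie1 and Erg, a receptor and a transcription factor of vessel cells, differed by 0.56 (0.08 to 1.03) and 0.53 (0.04 to 1.02). The number of endothelial genes at an unadjusted p under 0.05 was 5 without DIO replicate 3 and 0 without Control replicate 6. Matrix proteases and their inhibitors were higher in 13 of 17 cases, with Mmp11 at 0.69 (0.13 to 1.25) and Adamts1 at 0.54 (0.09 to 0.99), and a median of 0.23. Collagens and other matrix genes had a median of 0.13 and none had an unadjusted p under 0.05. Their median was 0.01 without Control replicate 6 and 0.27 without DIO replicate 3, where 3 genes had an unadjusted p under 0.05. Red cell genes were higher in 5 of 6 cases (median 0.20), with Alas2 of heme synthesis at 1.48 (0.42 to 2.53, or 0.89 without DIO replicate 3) and Slc4a1, the band 3 anion exchanger, at 0.86 (0.27 to 1.45).

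Respiratory chain genes were spread around small differences. Ndufa11, a complex I subunit, read 9.67, 10.03 and 10.14 in DIO tumors, against 9.81, 11 and 12.49 in Control tumors, a difference of -1.07 (-1.58 to -0.57). All DIO tumors lay below every Control tumor except replicate 6, and Control tumors were far more variable. Over complex I, 26 of 36 genes were lower with a median of -0.08 and 4 at an unadjusted p under 0.05, among them Ndufs3 (-0.41, -0.72 to -0.10), Ndufb2 (-0.74, -1.36 to -0.12) and Ndufs7 (-0.42, -0.84 to -0.01). Control replicates 7 and 5 had the highest complex I scores (1.01 and 0.44), whereas DIO tumors lay between -0.25 and 0.12. Without these 2 Control arrays the median was 0.19 with 30 of 36 genes higher, and complexes II to V changed likewise, at -0.08 with all arrays and 0.08 without the 2. Without Control replicate 7 alone the complex I median was 0.08. The same 2 tumors were low for the endoplasmic reticulum chaperone genes Hsp90b1 and Hspa5. The lowest Control score of the unfolded protein list as a whole was in replicate 4 (-0.40), not in either of these tumors. Hsp90b1 read 16.58, 16.78 and 17.06 in DIO tumors, against 15, 16.75 and 16.94 in Control tumors, and Hspa5 differed by 0.31 (0.02 to 0.60, or 0.19 without Control replicate 7). Nr4a1, an immediate early nuclear receptor, differed by 1.13 (0.38 to 1.89), while its list had a median of 0.06. Hypoxia and glycolysis (median 0.04), the citric acid cycle (0.03), cholesterol synthesis and uptake (0.09), the unfolded protein response (0.05), NRF2 targets (0.09) and epithelial junction genes (-0.05) stayed near the median of all genes.

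**Figure D4:**
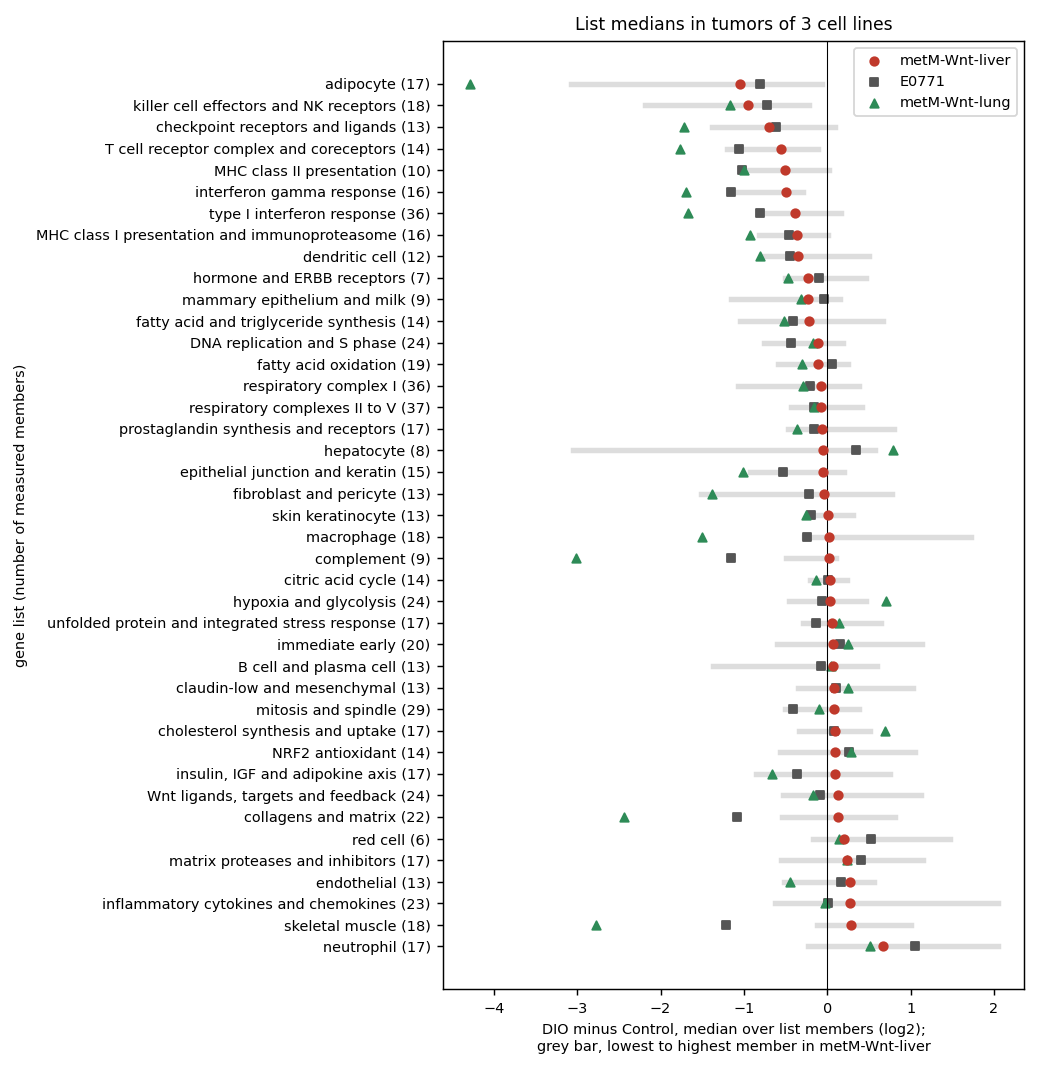
Median DIO minus Control difference (x axis, log2) of 41 gene lists (rows, with the number of measured genes) in metM-Wnt-liver, E0771 and metM-Wnt-lung tumors; grey bars span the lowest to the highest member in metM-Wnt-liver. In metM-Wnt-liver the lists run from adipocyte (-1.05) and killer cell (-0.95) at the low end to neutrophil (0.66) at the high end, and complement and collagen lists lie near 0 there but not in metM-Wnt-lung.

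The DIO difference of metM-Wnt-liver tumors was set against that of tumors from E0771 cells, another mouse mammary carcinoma line (8 DIO and 6 Control arrays), in 1 fit of all 79 arrays. E0771 tumors had 1008 called genes (5.17%) in their own fit. The bottom percentile of the E0771 arrays was 3.20 to 3.45 in DIO and 3.14 to 3.22 in Control tumors. Array medians there were 6.285 to 6.40 and 6.35 to 6.53 in the same order. These ranges overlap only in part, and how far this feature of the arrays enters the E0771 differences was not tested. The difference between the lines passed an adjusted p under 0.05 for 3 genes in the positive (0.0154%) and 9 in the negative direction (0.0461%). Bgn, the matrix proteoglycan biglycan, differed by 0.47 in metM-Wnt-liver and -1.68 in E0771 (difference between the lines 2.16, limma adjusted p = 0.0364). Fam98a differed by 0.45 in metM-Wnt-liver and -0.65 in E0771 (1.10, limma adjusted p = 0.00699), and the proteasome gene Psmd13 by 0.40 and -0.36 in the same order (0.77, limma adjusted p = 0.0364). Prrt1 differed by -0.46 in metM-Wnt-liver and 1.81 in E0771 (-2.27, limma adjusted p = 0.00699). Its signal in metM-Wnt-liver was low, averaging 4.69 in DIO and 5.15 in Control tumors, below the median gene (6.85). Among the other genes with a negative difference between the lines were Olfr1189, Casp12, Phf1, Zdhhc1 and Tmem67, with differences of -0.40 to -0.14 in metM-Wnt-liver and 0.69 to 1.82 in E0771. No member of the interferon, MHC, T cell, killer cell or neutrophil lists was called in this test. Ncr1, for example, differed by -1.97 in metM-Wnt-liver and -0.64 in E0771 (limma adjusted p = 0.482 for the difference between the lines). Saa3 differed by 3.11 in metM-Wnt-liver and 1.58 in E0771 (limma adjusted p = 0.70 for the difference between the lines). The count of 12 called genes was 0 with the replicate block, 1 with only the DIO and Control arrays of both lines and 466 with array weights.

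**Figure D5:**
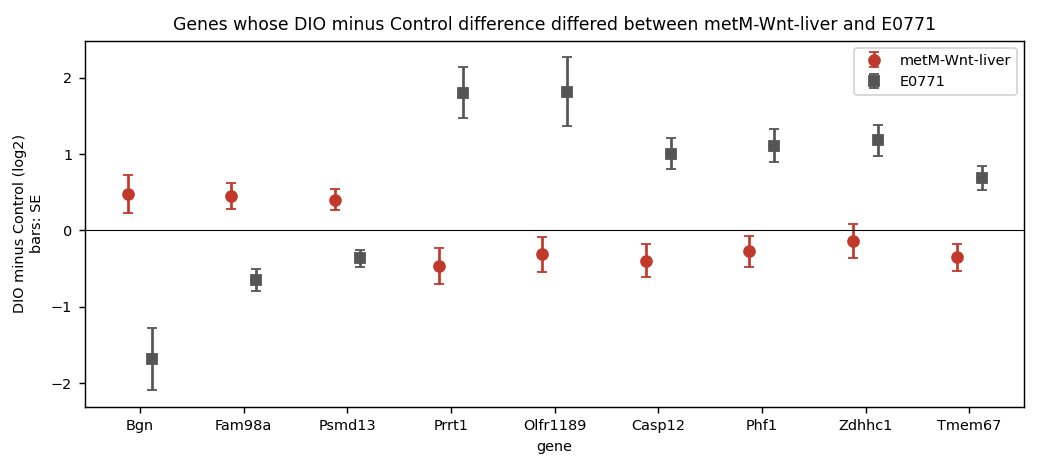
DIO minus Control (y axis, log2, with the SE from each line's own fit) of 9 genes in metM-Wnt-liver and E0771 tumors. Bgn, Fam98a and Psmd13 lie above 0 in metM-Wnt-liver and below 0 in E0771, and the other 6 genes lie the other way.

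Against tumors of metM-Wnt-lung, a line from a lung metastasis of the same M-Wnt cells (7 DIO and 6 Control arrays), 1249 genes had a positive (6.4%) and 999 a negative (5.12%) difference between the lines. The metM-Wnt-lung comparison by itself had 5340 called genes (27.4%). The bottom and top percentiles of the signal did not overlap there between DIO arrays (3.19 to 3.26 and 16.13 to 16.24) and Control arrays (3.10 to 3.15 and 16.28 to 16.48), so that diet and this feature of the arrays cannot be told apart. Type I interferon genes were called in 31 of 36 cases, complement genes in 9 of 9 and collagen and matrix genes in 15 of 22, each with a positive difference between the lines. List medians in metM-Wnt-liver and metM-Wnt-lung were -0.39 and -1.67 for type I interferon, 0.03 and -3.02 for complement and 0.13 and -2.44 for collagens. Of T cell and killer cell genes, 2 of 14 and 2 of 18 were called. Dnajc22 differed by -0.70 in metM-Wnt-liver and 2.80 in metM-Wnt-lung (limma adjusted p = 3.78e-05), and Gzmf, a granzyme, by -1.24 and 1.90 in that order (limma adjusted p = 0.00556). Adipoq, encoding adiponectin, differed by -3.08 in metM-Wnt-liver and -10.96 in metM-Wnt-lung (limma adjusted p = 0.0121).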

How the data were processed

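RNA of whole tumors was hybridized to Clariom S Mouse HT arrays, 1 per mouse. The authors deposited log2 signals made by SST-RMA in Transcriptome Analysis Console 4.0; whether the lines were normalized together is not given in the sources used here. Of 22206 transcript clusters, 19572 had 1 symbol (checked by gene ID against RefSeq GRCm38.p6) and 2634 none; 55 genes with several clusters kept the brightest, leaving 19505. limma 3.58.1 (R 4.3.3) fitted the 4 groups of 25 metM-Wnt-liver arrays, or 12 groups of 79 arrays between lines, with Benjamini-Hochberg adjustment over all genes, and was tested on simulated data. The number of arrays limits the precision.

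Genes and the 41 lists were chosen with earlier results of these data known. Named are, per direction, 10 genes with the smallest unadjusted p (difference at least 0.5, mean above the median gene in the higher group), 5 genes without overlap, 4 per list by p (otherwise its first 2), 5 called between lines, and markers. Some list members mentioned beside these were chosen after their values were seen.

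Alternatives were other sets of arrays, the replicate block, quantile normalization, centring, array weights, trended variances, bright genes, averaged clusters and leaving out each array. Replicate numbers did not pair arrays: deviations of the 7 same-numbered pairs correlated at -0.233 to 0.094. Some genes are not analysed here.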

Additional observations from a re-analysis of the deposited data

Results flagged for a closer look

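Values of 1 tumor that stood far from the other 6 of its group were looked for in the 82 sets of list scores (41 lists, 2 groups) and in the DIO and Control values of 78 named genes. By Dixon's test 29 of 238 such sets held an outlying tumor (14 list scores and 15 gene values); chance flags about 1 in 20 sets.

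DIO replicate 3 was the outlying tumor in many of them. Its scores were the lowest for interferon gamma response (-1.78, the next DIO tumor -0.715), type I interferon response (-1.03) and the Wnt list (-0.589), and the highest for B and plasma cells (1.14). Among genes it was lowest for Scimp (5.62) and Igtp (11.38) and highest for Marco (10.43) and Stfa2l1 (9.33). DIO replicate 2 was highest for matrix proteases (0.605), Jchain (8.44), Retn (7.59) and Cyp2e1, a gene of liver and fat (7.93). DIO replicate 4 was highest for dendritic cell genes (0.913), DIO replicate 6 for cholesterol synthesis (0.456) and DIO replicate 7 for skeletal muscle (4.48).

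Among Control tumors, replicate 4 was highest for fatty acid and triglyceride synthesis (1.43), mammary epithelium and milk (0.522), skin keratinocyte genes (0.0773) and Pnpla2 (12.93), and lowest for S phase genes (-0.351). Control replicate 5 was highest for skeletal muscle (1.95) and Tmem67 (10.52). Control replicate 6 was lowest for fibroblast and pericyte genes (-0.966), Saa3 (6.85) and Ptgis (5.49), and highest for Krtcap2 (15.39). Control replicate 3 was highest for D11Wsu47e (9.81) and lowest for S100a8 (4.22), and Control replicate 2 was lowest for Fmnl1 (10.93). What set these tumors apart was not tested.

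The difference between DIO and Control tumors differed between metM-Wnt-liver and E0771, by the limma test of that difference, for Bgn (2.16), Fam98a (1.10), Psmd13 (0.767), Prrt1 (-2.27), Olfr1189 (-2.13), Casp12 (-1.40), Phf1 (-1.38) and Zdhhc1 (-1.32). Between metM-Wnt-liver and metM-Wnt-lung it differed for Car3 (9.03), Adipoq (7.89), Retn (6.80), Sfrp2 (6.15) and Serpina3n (6.07), and for Wfdc3 (-4.20), Dnajc22 (-3.50), Gzmf (-3.14), Nt5e (-2.96) and Gzmg (-2.77). The calls against E0771 were unstable, and for Casp12 and Zdhhc1 the limma adjusted p was 0.0482. Genes called against E0771 numbered 0 with the replicate block, 1 with only the DIO and Control arrays of both lines and 466 with array weights.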

How the results depend on the processing

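The count of 0 called genes for DIO minus Control was the same in every alternative except 1. It was 1 without Control replicate 3, so that leaving out each tumor gave 0 to 1, and that gene was D11Wsu47e (difference 0.74, limma adjusted p = 0.0431). With the replicate block it was 0, and 0 at a log2 difference of at least 1. The count at an unadjusted p under 0.05 was 1045, from 772 with genes above the median signal and 792 with the replicate block to 1474 without Control replicate 6. Of 78 genes whose DIO minus Control difference was recomputed, none changed sign under these alternatives. Among list medians, only those of hormone and ERBB receptors (0.28 against -0.23) and red cell genes (0.65 against 0.20) moved by more than the spread between tumors, both with only genes above the median signal, which leaves fewer members. That spread, the mean SD of the list score within the DIO and Control groups, is a lenient yardstick. For interferon gamma genes the SD was 0.61 in each group, beside a list median of -0.50. Skeletal muscle counted as unmoved although its median went from 0.28 to -0.38 without DIO replicate 7. The difference from E0771 was called for 12 genes. It was called for 1 gene with only the DIO and Control arrays of both lines, 0 with the replicate block, 466 with array weights, 19 with trended and robust variances and 51 with genes above the median signal. Leaving out 1 tumor gave 2 (without DIO replicate 7) to 41 genes (without DIO replicate 2). The difference from metM-Wnt-lung was called for 2248 genes, for 1383 with only the DIO and Control arrays, 1390 with the replicate block and 1908 to 2341 with 1 tumor left out. The causes were not tested. The settings without the 3 arrays high in adipocyte or muscle genes and without the 2 Control arrays highest in respiratory genes were added after the data were seen.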

Other observations

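Several genes outside the lists had large differences and are named here after their values were seen. Bglap, encoding osteocalcin, had the smallest unadjusted p of all genes (4.91e-05, limma adjusted p = 0.58) and was left out of the naming rule because its mean lay below that of the median gene. It read 4.53, 5.27 and 6.22 (lowest, median and highest) in DIO tumors, against 5.97, 6.71 and 7.31 in Control tumors, and only DIO replicate 7 reached the Control range. Mup2, of the major urinary protein family whose near-identical copies an array cannot fully separate, had the largest difference downward at -3.65. It read 4.62, 7.73 and 13.6 in DIO tumors, against 4.18, 12.66 and 16.3 in Control tumors, and its extremes were the tumors at the extremes of the adipocyte score among Control tumors, replicates 4 and 6. Gzmc, a granzyme of activated killer cells, differed by -2.33 (7 DIO tumors at 5.97 to 10.5, 7 Control tumors at 8.33 to 12.3).

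Serpinb2, a plasminogen activator inhibitor of monocytes, and Cd5l, a secreted macrophage protein, came next to Saa3 among the differences upward, at 2.46 and 2.31. Serpinb2 read 4.63, 7.17 and 13.95 in DIO tumors, against 4.36, 5.32 and 6.5 in Control tumors. Cd5l read 3.55, 4.86 and 13 in DIO tumors, against 3.21, 3.88 and 5.11 in Control tumors. DIO replicate 3 was the highest tumor for both genes, as it was for Marco and the neutrophil list.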
